A study of Bos taurus with 4 samples.

Results

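Adipocyte nuclei of bovine intramuscular fat were taken as the nuclei that held RNA of several fat cell genes and none of 5 genes of other cell types. A nucleus was chosen when at least 200 genes were detected in it, when at least 4 of 9 adipocyte markers had at least 1 unique molecular identifier (UMI, 1 counted RNA molecule), and when PDGFRA, PECAM1, CDH5, CSF1R and MRC1 had none. The rule found 742 such nuclei in the 2 intramuscular libraries, 702 in animal 1 and 40 in animal 2, out of 8849 nuclei with at least 200 genes in the whole series. The measured levels of these 14 genes therefore chose the nuclei, and their values below are a description without a test.

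Adipocytes store energy as triglyceride in a single large lipid droplet and release it as fatty acids when hormones call for it. Droplet coat proteins of the perilipin and CIDE families guard the store, synthases and acyltransferases fill it, and a series of lipases empties it. Intramuscular fat, the marbling of beef, lies between muscle fibres and fibre bundles, and in cattle the fat cell itself is the main site of fatty acid synthesis.

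The study isolated nuclei from subcutaneous backfat and from intramuscular fat of 2 beef steers kept in a commercial feedlot, which received no treatment and whose diet, age and breed the labels do not know. Each steer gave 1 library per depot, so that each depot had 2 libraries and the animals were the replicates. Fresh tissue was broken with a Dounce homogeniser and the nuclei were run on the 10x Chromium platform with the 3' v3.1 kit. The labels state no enrichment for any cell type.

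The libraries differed in size and quality. Nuclei with at least 200 genes numbered 881 for animal 1 and 6128 for animal 2 in subcutaneous fat, and 1777 and 63 in intramuscular fat. The chosen nuclei held 1375857 UMIs in the intramuscular library of animal 1 and 63960 in that of animal 2, with medians of 1734 (range 507 to 12805) and 1045 (279 to 8919) UMIs per nucleus. The intramuscular library of animal 2 stood apart, since mitochondrially encoded genes took 0.0141% of UMIs in its chosen nuclei against 0.735% to 0.951% in those of the other libraries. The libraries labelled subcutaneous held skeletal muscle RNA, with a muscle list at 8.89% and 31.8% of UMIs in their nuclei outside the rule, against 0.565% and 0.282% in the intramuscular ones. Whether the depot labels were exchanged in both animals cannot be told apart from these files, and such an exchange would turn every direction between depots given below. The labels were used as given. Between 0 and 2 cell barcodes were shared by any pair of libraries, and no barcode was chosen in more than 1.

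The chosen nuclei made up 39.5% (exact Clopper-Pearson 95% interval 37.2 to 41.8) and 63.5% (50.4 to 75.3) of the intramuscular libraries of animals 1 and 2. The same rule chose 134 nuclei, 15.2% (12.9 to 17.8), and 27 nuclei, 0.441% (0.291 to 0.640), in the subcutaneous libraries. Both intramuscular shares lay above both subcutaneous ones. The mean was 51.5% ± 17.0 (SD, n = 2) in the intramuscular and 7.83% ± 10.4 (SD, n = 2) in the subcutaneous libraries, a difference of 43.7 percentage points with an exact two-sided permutation p of 0.333. That is the smallest p that 6 arrangements of 4 libraries can give. Muscle fibre nuclei in the subcutaneous libraries enter the denominator, and their part in the difference was not tested.

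The 9 markers cover the droplet and its turnover. PLIN1 (ENSBTAG00000015350) and PLIN4 (ENSBTAG00000015690) are perilipins, and CIDEC (ENSBTAG00000007969) fuses small droplets into large ones. LIPE (ENSBTAG00000038321) and PNPLA2 (ENSBTAG00000005144) encode hormone-sensitive lipase and adipose triglyceride lipase. ACACA (ENSBTAG00000017567) commits acetyl-CoA to fatty acid synthesis, and GPAM (ENSBTAG00000011917) adds the first acyl chain to glycerol phosphate. TRARG1 (ENSBTAG00000019379) takes part in the traffic of the insulin-regulated glucose transporter, and PPARG (ENSBTAG00000001333) is the transcription factor at the centre of adipocyte differentiation. PLIN1, PLIN4, ACACA, GPAM and PPARG overlap other genes in the RefSeq gene table, so a part of their UMIs may belong to those neighbours.

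The chosen nuclei had a median of 7 markers in animal 1 and 6 in animal 2. In animal 1, 77, 99, 130, 159, 137 and 100 nuclei had 4, 5, 6, 7, 8 and 9 markers. Deeper nuclei showed more of them, since the number of markers followed the UMI total with a Spearman rho of 0.573 across the chosen nuclei of animal 1 and 0.726 in animal 2, a description across nuclei of 1 library. Another 194 nuclei of animal 1 and 6 of animal 2 had at least 4 markers but a UMI of an excluded gene.

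**Figure D1:**
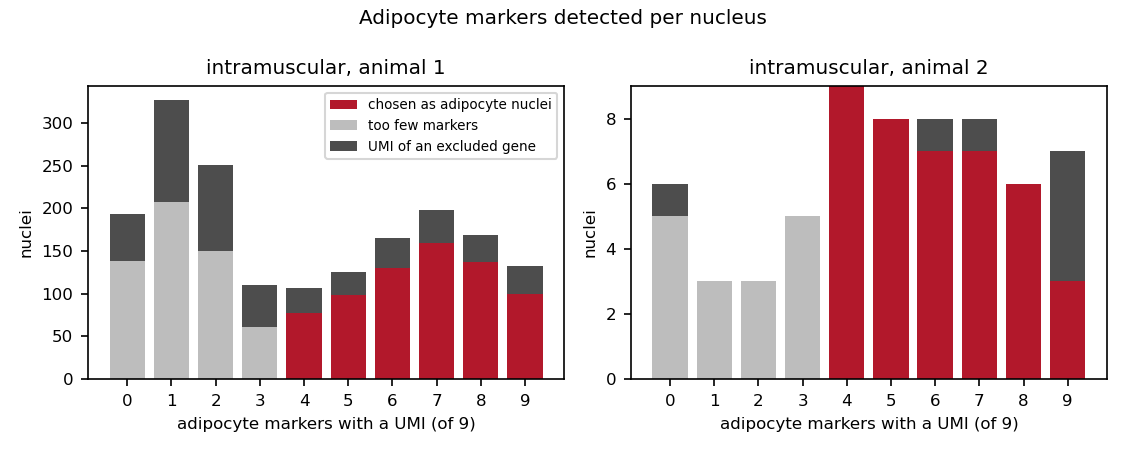
Number of nuclei (vertical axis) by the number of the 9 adipocyte markers with a UMI (horizontal axis) in the 2 intramuscular libraries. Red bars are the 702 and 40 chosen nuclei, light grey bars have too few markers, dark grey bars hold a UMI of an excluded gene, and in animal 1 the counts have one peak at 1 marker and another at 7.

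On a scale that sets the UMIs of all chosen, or all other, nuclei of a library to the same total (counts per 1e6 UMIs, CPM), PLIN1 stood at 2726 in the chosen and 1017 in the other nuclei of animal 1, and at 1532 and 1060 in animal 2. GPAM stood at 1350 against 447 in animal 1 and at 281 against 241 in animal 2. The ratio of chosen to other nuclei ran from 1.73 for TRARG1 to 3.02 for GPAM in animal 1, and from 1.04 for PNPLA2 to 1.68 for PLIN4 in animal 2. Nuclei outside the rule also held marker RNA. The 9 markers took 0.473% of their UMIs in animal 1, against 1.19% in the chosen nuclei, and 1.197% against 1.64% in animal 2. In animal 2 only 23 nuclei lay outside the rule, so the contrast with other nuclei below rests mainly on animal 1 with its 1075.

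Of those 1075 nuclei, 520 had at most 1 marker, and the ratios against these were larger. GPAM was 45.4 times (95% counting interval 25.9 to 88.1) and PLIN4 40.9 times (24.7 to 73.1) as abundant in the chosen nuclei of animal 1, and CIDEC, the lowest of the 9 markers against these nuclei, 4.16 times (3.37 to 5.17). These intervals, like all counting intervals below, cover counting error only.

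A list of 14 lipid and insulin response genes outside the rule, made after values had been seen, describes the edge of the group. They were ADIPOQ, LEP, SCD, FASN, ACLY, LPL, CD36, FABP4, ACSL1, PDE3B, INSR, AGPAT2, DGAT1 and ELOVL6. In animal 1 they took 2.55% of UMIs in the 77 nuclei with 4 markers, just inside the rule, and 2.32% in the 61 nuclei with 3 markers, just outside it. They took 2.46% in the 100 nuclei with 9 markers and 1.43% in the 138 nuclei with none. The 194 nuclei left out for a UMI of an excluded gene had 2.39%, with blood endothelial genes at 0.103% against 0.0330% in the nuclei with 4 markers. In animal 1 the share thus lay between 2.32% and 2.55% on both sides of the limit of 4 markers and in the nuclei left out by an excluded gene. In animal 2 the values were 0.848% in the 9 nuclei with 4 markers, 1.15% in the 5 with 3 and 0.222% in the 5 with none.

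Against the other nuclei of their libraries, the chosen nuclei of both animals had more RNA of the phosphatase gene DUSP4, the glycerol gene PCK1 and the glycerol channel gene AQP7, and those of animal 1 more of the insulin-responsive phosphodiesterase gene PDE3B. Among 4472 genes with enough UMIs, 44 (0.984%) were at least 2-fold higher in both animals and 78 (1.74%) at least 2-fold lower. With the UMI minimum set on the chosen nuclei alone, 44 of 3079 were higher and 10 lower. In animal 1 alone 369 (8.25%) were at least 2-fold higher and 303 (6.78%) lower. The median ratio over all these genes was 1.08 in animal 1 and 0.949 in animal 2. The ratios that follow are descriptions, since the nuclei were chosen in the same contrast. The 20 highest genes were taken among those with a ratio above 1 in both animals. That their ratios in animal 2 lie above 1 therefore follows from the choice.

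Several of the highest ratios in animal 1 belonged to signalling genes. DUSP4, a phosphatase that switches off MAP kinases, had 74.1 CPM in the chosen and 16.4 CPM in the other nuclei of animal 1, a ratio of 4.53 (2.84 to 7.54), and 188 against 0 CPM in animal 2. MST1R, a receptor tyrosine kinase, had a ratio of 3.74 (2.49 to 5.80) in animal 1, and DUSP10, another MAP kinase phosphatase, 2.93 (2.495 to 3.46). PTGER3, a prostaglandin E receptor that dampens cyclic AMP and with it lipolysis, had 178 against 55.1 CPM, a ratio of 3.23 (2.48 to 4.25), but 391 against 385 CPM in animal 2, a ratio of 1.01 (0.521 to 2.03). PDE3B, the phosphodiesterase through which insulin lowers cyclic AMP, had 622 against 208 CPM, a ratio of 2.99 (2.61 to 3.43), and 1.40 (0.863 to 2.32) in animal 2. CTF1, the cytokine cardiotrophin, had 2.71 (2.17 to 3.41) in animal 1 and 1.15 (0.695 to 1.94) in animal 2. In animal 2 the intervals of MST1R, at 1.82 (0.619 to 6.45), and DUSP10, at 1.48 (0.700 to 3.32), also included 1.

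Enzymes and a channel of metabolism were also among the 20 highest, and are grouped here by their known roles only. PCK1 is an enzyme of the path from pyruvate to glycerol phosphate in fasting fat. It had 1138 against 339 CPM in animal 1 and 1329 against 843 CPM in animal 2. Its ratios were 3.36 (3.03 to 3.74) and 1.58 (1.05 to 2.41). ACSL1, which activates fatty acids with coenzyme A, had a ratio of 3.21 (2.81 to 3.69) in animal 1 and 1.46 (0.845 to 2.61) in animal 2. AQP7, the channel through which glycerol leaves the fat cell, was above 2-fold in both animals, at 2.73 (2.44 to 3.06) and 2.15 (1.21 to 4.03). GYG2, a primer of glycogen synthesis, had 3.42 (2.29 to 5.23) in animal 1, and PFKFB3, which speeds glycolysis, 3.15 (2.38 to 4.21). ACER3, a ceramidase, had 2.71 (2.29 to 3.23) in animal 1 and 1.19 (0.403 to 3.92) in animal 2. In animal 2 the intervals of GYG2, at 3.57 (0.779 to 33.2), and PFKFB3, at 1.95 (0.889 to 4.71), included 1 as well.

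The rest of the 20 highest genes were of mixed roles. The collagen chain gene COL5A3 had 4331 CPM in the chosen and 1499 CPM in the other nuclei of animal 1, a ratio of 2.89 (2.75 to 3.04), and was detected in 92.6% of the chosen nuclei. In animal 2 COL5A3 had 10913 against 10356 CPM, so that its ratio there was 1.05 (0.933 to 1.19). The adhesion gene PCDH7, the teneurin gene TENM4, the transcription factor gene SOX6, the cell survival gene BCL2L2, and HOOK2, ANKEF1 and TBC1D2B had ratios of 2.74 to 3.67 in animal 1 and of 1.30 to 2.60 in animal 2. The counting intervals of all of these in animal 2 included 1.

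Some of the best known adipocyte products had ratios near 1 in animal 1, and the 2 animals differed. FABP4, the fatty acid carrier of the fat cell, had 11423 CPM in the chosen and 10515 CPM in the other nuclei of animal 1, and 2908 against 3179 CPM in animal 2. SCD, which makes the monounsaturated fatty acids of beef fat, had 6459 against 5004 CPM in animal 1, a ratio of 1.29 (1.25 to 1.33). In animal 2 SCD had 813 against 145 CPM, a ratio of 5.63 (2.42 to 16.0) on 52 and 6 UMIs. The fatty acid transporter CD36 went in opposite directions, at 0.791 (0.749 to 0.836) in animal 1 and 2.02 (1.38 to 3.03) in animal 2. The leptin gene LEP had 302 against 241 CPM in animal 1 and 203 against 313 CPM in animal 2, and the adiponectin gene ADIPOQ had 74.9 against 42.4 CPM in animal 1, a ratio of 1.76 (1.26 to 2.48) like those of the markers TRARG1 and PPARG (1.73 and 1.77), and 3 UMIs in each class of animal 2. Against the 520 nuclei with at most 1 marker, the ratio in animal 1 was 1.60 (1.52 to 1.69) for SCD and 1.43 (1.37 to 1.48) for FABP4, while it was 19.99 (13.3 to 31.6) for PCK1, 22.8 (12.7 to 45.9) for PDE3B and 36.0 (9.85 to 299) for PTGER3. PCK1, PDE3B and PTGER3 were named for their high ratios in that animal. Against all other nuclei of animal 2, SCD lay above these 3 genes, at 5.63 against 1.58, 1.40 and 1.01. FABP4 lay below them there as well, with 2908 CPM in the chosen and 3179 CPM in the other nuclei. Whether free RNA carried SCD and FABP4 into other nuclei was not tested.

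Detection at equal depth is given as a description, since detection of the markers is what the rule selected on. With every nucleus thinned to 500 UMIs, PLIN1 was detected in 68.9% of the chosen and 22.0% of the other nuclei of animal 1, against 93.3% and 32.6% unthinned. SCD was detected in 78.1% of the chosen and 85.4% of the other thinned nuclei, and FABP4 in 98.9% and 95.1%. Median depths before thinning were 1734 and 748 UMIs.

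**Figure D2:**
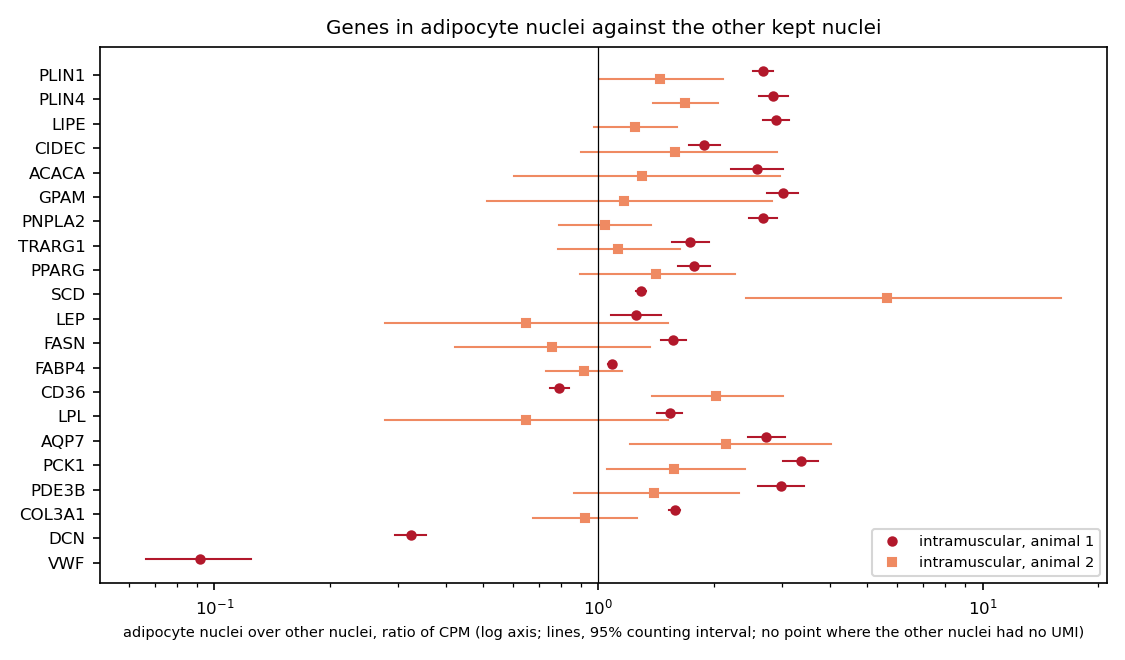
Ratio of CPM in the chosen adipocyte nuclei to that in the other kept nuclei (log axis) for 21 genes in the intramuscular libraries of animal 1 (circles) and animal 2 (squares), with 95% counting intervals as lines. The 9 markers and AQP7, PCK1 and PDE3B lie at 1.73 to 3.36 in animal 1, SCD and FABP4 lie near 1 there, and VWF lies at 0.0919.

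By pathway, the lists of triglyceride turnover held the most genes above 2-fold in animal 1, where 8.25% of all genes were. They were compiled with earlier results of these data known. Triglyceride synthesis had 7 of 12 compared genes above 2-fold in animal 1 with a median ratio of 2.22, among them GPAM, PCK1 and DGAT1, the enzyme of the last acylation step, at 2.31 (1.88 to 2.85). Lipolysis had 6 of 11 with a median of 2.36, among them LIPE at 2.90 and PDE3B, and none at least 2-fold lower. De novo fatty acid synthesis had 5 of 10 with a median of 2.12. Its transcription factors SREBF1 and MLXIPL stood at 2.61 (2.11 to 3.24) and 2.66 (2.36 to 3.002), and FASN, the synthase itself, at 1.57 (1.46 to 1.69). The markers GPAM, ACACA, LIPE, PNPLA2, PLIN1 and PLIN4 are members of these lists or of the droplet list, so their part in the counts follows from the rule.

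The droplet coat list had 3 of 8 genes above 2-fold in animal 1, and insulin signalling and glucose uptake 4 of 12, with the insulin receptor substrate IRS2 at 2.11 (1.46 to 3.11). Fatty acid uptake had 2 genes at least 2-fold higher and 2 at least 2-fold lower among 11. The 2 lower ones were GPIHBP1, the capillary anchor of lipoprotein lipase, at 0.125, and the carrier FABP5 at 0.259, and in animal 2 they rested on 2 UMIs each. Fatty acid oxidation had none of 10 above, and PDK4, which blocks pyruvate oxidation, was the 1 at least 2-fold lower, at 0.198 (0.183 to 0.214). In animal 2 PDK4 had 1845 against 1565 CPM. Among 16 adipogenic transcription factors, KLF15 was above 2-fold in both animals and rested on 46 and 6 UMIs. The 8 ribosomal protein genes were all at least 2-fold lower in animal 1, with a median of 0.401. In animal 2, where the median over all genes was 0.949, the ribosomal protein list had a median of 1.43, on the other side of 1. Fatty acid oxidation had 1.39 there, the droplet coat 1.32, triglyceride synthesis 1.16, lipolysis 1.04, insulin signalling 1.02, adipogenic transcription factors 0.935, fatty acid uptake 0.914 and fatty acid synthesis 0.909.

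In animal 1, marker lists of other cell types took smaller or similar shares of UMIs in the chosen than in the other nuclei, with mast, satellite and muscle genes as exceptions. Blood endothelial genes took 0.0148% of UMIs in the chosen nuclei of animal 1 and 0.0219% in animal 2, against 0.180% and 0.0578% in the other nuclei, and PECAM1 and CDH5 were at 0 by the rule. VWF, the clotting factor of endothelium, had 33.4 against 364 CPM in animal 1. Macrophage genes took 0.0122% against 0.0394% in animal 1 and 0.00625% against 0.00723% in animal 2, and pericyte and smooth muscle genes 0.00545% against 0.0298% in animal 1. The endothelial and macrophage lists hold 4 of the 5 excluded genes, and the other nuclei include those left out for a UMI of these, so a part of these gaps follows from the rule. In animal 1 mast cell genes took 0.00414% of UMIs in the chosen against 0.00246% in the other nuclei, satellite cell genes 0.00124% against 0.000372% and the skeletal muscle list 0.606% against 0.565%, and in animal 2 the muscle list took 0.300% against 0.282%. Schwann, mast and T cell genes were also higher in the chosen nuclei of animal 2, on 2, 1 and 1 UMIs. The 8 lowest genes by ratio in animal 1 were CD93, APOA1, CA4, TNFSF10, LZTS1, LMO7, STC1 and S1PR1, at 0.0376 to 0.0873. CD93 and S1PR1 are endothelial receptors, and CA4 is a carbonic anhydrase of capillaries.

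The progenitor and fibroblast list took 0.846% of UMIs in the chosen nuclei of animal 1, close to the 0.871% in the other nuclei, and 0.317% against 0.344% in animal 2. Of its 5 compared genes, 4 were at least 2-fold lower in the chosen nuclei of animal 1, where the median ratio was 0.355. In animal 2 the median ratio was 0.918. The exception in animal 1 was COL3A1, a fibrillar collagen chain, with 9784 of the 11646 UMIs of the list in the chosen nuclei. COL3A1 was in 99.9% of the chosen nuclei of animal 1 at 7111 CPM, 1.58 times (1.53 to 1.63) its level in the other nuclei. DCN, a small matrix proteoglycan with too few UMIs in animal 2 to be compared, had 448 against 1378 CPM in animal 1, a ratio of 0.325 (0.296 to 0.356). In animal 2 COL3A1 had 1595 against 1734 CPM, and DCN 2 UMIs in the chosen nuclei. Where the COL3A1 RNA in the chosen nuclei came from was not tested.

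Among the chosen nuclei of animal 1, thinned to 500 UMIs each, most genes varied little beyond counting. The variance over the mean, which is near 1 for counting alone, had a median of 1.12 over 894 genes. The 12 most variable genes ran from 2.79 to 5.42. SCD was the most variable, at 5.42 with a mean of 3.63 UMIs per thinned nucleus, and was detected in 78.1% of them. SAT1, the enzyme that acetylates polyamines, followed at 5.28. PCK1 had 3.99, and the 20th of nuclei with most PCK1 before thinning held 47.6% of its unthinned UMIs. Such shares of the top 20th were taken without thinning, so differences in depth enter them. NNAT, an imprinted proteolipid gene, had 3.24 with 62.9% of its unthinned UMIs in the top 20th of nuclei. ADM, the vessel-dilating peptide adrenomedullin, had 2.89 and was in 90.6% of thinned nuclei.

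Some of the most variable genes were scarcer in the chosen than in the other nuclei. The chemokine gene CXCL3 had a variance over mean of 3.97, with 67.9% of its unthinned UMIs in the top 20th of nuclei. It stood at 531 CPM in the chosen and 3099 CPM in the other nuclei of animal 1. CCL2, another chemokine, had 2.91, at 434 against 1998 CPM, the glucose transporter SLC2A3 had 4.11, at 653 against 2122 CPM, and PDK4 4.08. The zinc finger factor KLF6 and the RNA helicase DDX5 had 2.84 and 2.79. In animal 2, with 37 nuclei deep enough, SCD again had the largest value of these 12, 4.85, while SAT1 had 1.16, CXCL3 0.944 and CCL2 no UMI.

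List shares per nucleus, taken without thinning, varied as follows. Counting error and depth enter these ranges, since chosen nuclei of animal 1 held 507 to 12805 UMIs, and their part was not tested. From the 5th to the 95th percentile, chosen nuclei of animal 1 had 0.181% to 1.08% of their UMIs in lipolysis genes (median 0.571%), 0.138% to 1.42% in fatty acid synthesis genes (median 0.516%) and 0.378% to 3.46% in immediate early and heat shock genes (median 1.55%). The corresponding medians in animal 2 were 0.998%, 0.298% and 0.216%.

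The chosen nuclei of the 2 steers differed widely, each steer being a single library, so that animal and library cannot be told apart and no test is possible. Of 8101 genes with at least 20 UMIs in either library, 245 (3.02%) were higher in animal 1 with a 95% counting interval of the ratio above 2, and 408 (5.04%) in animal 2. Animal 1 had more RNA of mitochondria, immediate early genes and ribosomal proteins. Animal 2 had more RNA of HIF3A, of several adipogenic transcription factors and of some lipid enzymes.

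On the side of animal 1, the mitochondrial COX3 had 2092 against 31.3 CPM, and 9 of 13 mitochondrially encoded genes lay above 2. The matricellular gene CCN1 had 1970 against 31.3 CPM, and FOSB, an immediate early transcription factor, 1893 against 31.3 CPM. Immediate early and heat shock genes lay above 2 in 8 of 16, with EGR1 at 1940 against 93.8 CPM and the chaperone HSPA8 at 711 against 46.9 CPM, and none lay below. The 8 of 16 ribosomal protein genes above 2 included RPLP1 with 879 against 78.2 CPM. COX2, ATP6 and the protease inhibitor CST3 had no UMI in animal 2 and 965, 811 and 796 CPM in animal 1. Lipid genes on this side were FABP4 (11423 against 2908 CPM), SCD (6459 against 813 CPM), the lipoprotein lipase gene LPL (1306 against 203 CPM), GPAM (1350 against 281 CPM), FASN (1424 against 438 CPM) and PLIN2 (241 against 31.3 CPM).

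On the side of animal 2, HIF3A, a hypoxia-inducible factor, had 1220 CPM against 21.1 in animal 1, and was in 75.0% of its chosen nuclei against 3.99%. LPIN1, which makes diacylglycerol for triglyceride synthesis, had 1032 against 50.9 CPM, and ZBTB16, a glucocorticoid-responsive transcription factor, 954 against 51.6 CPM. The phosphatase PPP5C had 860 against 25.4 CPM, the cholesterol exporter ABCA1 344 against 17.4 CPM and the adhesion gene TNS2 829 against 60.3 CPM. Of 18 adipogenic transcription factors, 5 lay above 2 in animal 2 (NFIA, EBF1, RXRA, NR1H3 and ZBTB16) and none in animal 1. NR1H3, the oxysterol receptor that drives ABCA1 in many cells, had 328 against 34.9 CPM. AGPAT2 and DGAT1, enzymes of triglyceride synthesis, had 1438 against 534 and 907 against 227 CPM, PLIN4 6035 against 1518 CPM, CIDEA, a droplet protein, 2048 against 401 CPM, and the clock gene PER1 1032 against 132 CPM.

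In the subcutaneous libraries of the same steers some of these gaps were present and others were not. HIF3A had 239 CPM in the chosen nuclei of the subcutaneous library of animal 1 and 1077 in that of animal 2, and PPP5C had 192 and 829. COX3 had 1712 and 1795 CPM there, and DDX5, at 13373 and 1360 CPM in the intramuscular libraries, had 5837 and 1768. In the other nuclei of the intramuscular libraries HIF3A had 9.68 and 1084 CPM, LPIN1 38.0 and 1276, and FOSB 3198 and 0, so that for these genes the gap between the libraries was also present outside the chosen nuclei. ADM, at 9837 and 9647 CPM, had a ratio of 1.02 (0.941 to 1.11) between the animals.

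**Figure D3:**
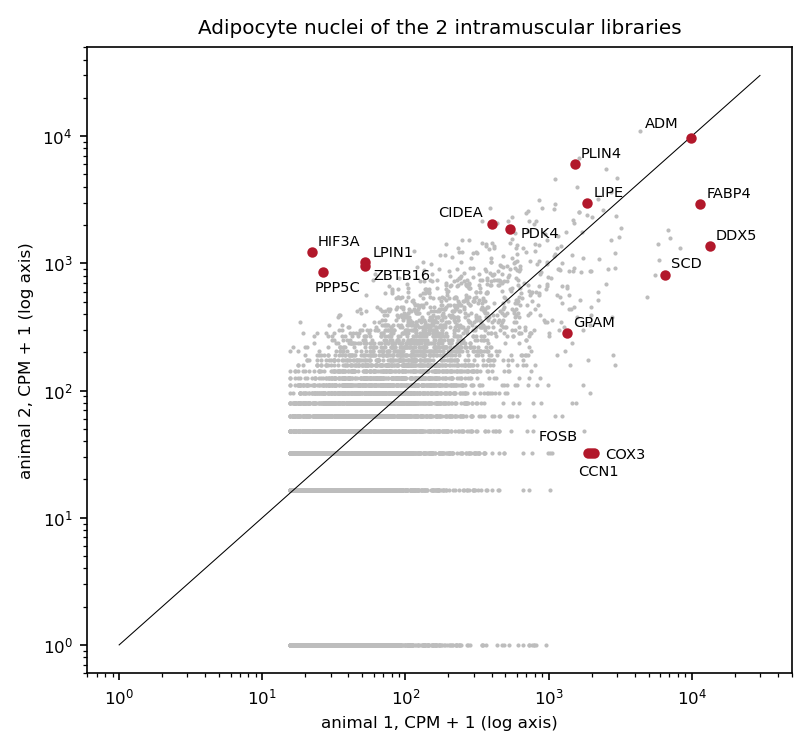
CPM + 1 in the chosen adipocyte nuclei of the intramuscular library of animal 1 (horizontal, log axis) against that of animal 2 (vertical, log axis) for 8101 genes, with named genes in red and a line of equal levels. HIF3A, PPP5C, LPIN1 and ZBTB16 lie far above the line, FOSB, CCN1 and COX3 far below it, and ADM on it, and 1 UMI is worth more in animal 2, which makes the rows of points.

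Between the depots as labelled, 61 genes passed the test in the chosen nuclei, and all but 1 of them were lower in intramuscular nuclei, 27 of these being on a list of skeletal muscle fibre genes. Of 3796 genes tested with edgeR's quasi-likelihood test on UMIs summed per library (2 libraries per depot), 1 (0.0263%) rose in the intramuscular depot and 60 (1.58%) fell, at a Benjamini-Hochberg adjusted p under 0.05. At an unadjusted p under 0.05 there were 157. The depots did not overlap, with both libraries of one above both of the other, for 428 genes (11.3%) higher and 668 (17.6%) lower in intramuscular nuclei. The median log2 fold change over all tested genes was 0.06. Fewer or more cells of a subtype and less or more RNA per cell cannot be told apart in these sums.

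ADAMTS4 (ENSBTAG00000013210), a metalloprotease that cuts matrix proteoglycans, was the gene that rose. Animal 1 had 3 UMIs of it in subcutaneous and 168 in intramuscular chosen nuclei, and animal 2 had 0 and 30. That is 11.97 and 0 CPM in subcutaneous against 122 and 469 CPM in intramuscular nuclei. Both intramuscular libraries lay above both subcutaneous ones. Its log2 fold change was 4.84 (SE 1.10, edgeR adjusted p = 0.0423). With the animal as a block it was 4.19 and no longer passed (edgeR adjusted p = 0.0758), nor did it with the size factors of DESeq2 in edgeR (adjusted p = 0.0504). The other nuclei held ADAMTS4 in the same order, with 56.0 and 8.81 against 442 and 482 CPM, so the chosen nuclei had no more of it than their neighbours. It passed in 9 of the 16 settings in which it was tested, with adjusted p from 1.17e-05 to 0.899, the highest when the subcutaneous library of animal 2 was left out, and 0.505 when that of animal 1 was.

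The 60 genes that fell included 27 of the 34 tested genes of the skeletal muscle list and 33 outside it, 7 of those without a name, and 21 of the 60 had no UMI in either intramuscular library. MYH2, a fast myosin heavy chain, had 3024 and 3840 CPM in the subcutaneous chosen nuclei and 0 UMIs in the intramuscular ones, at least 64.5-fold lower against a floor of 3 counts per library. The light chain genes MYL2 and MYL1 were at least 21.7-fold and 16.8-fold lower, the slow myosin MYH7 at least 15.9-fold, the troponins TNNC1 and TNNT1 at least 14.5-fold and 9.02-fold, and the calcium pump inhibitor sarcolipin SLN at least 5.02-fold. ENSBTAG00000053626, a gene without a name in the files, was at least 47.4-fold lower. MYLPF had 2282 and 10110 against 0.727 and 0 CPM, and the actin gene ACTA1 2362 and 8176 against 1.45 and 0 CPM. Named genes outside the list, picked after their values were seen, included the intermediate filament gene DES with 722 and 4199 against 1.45 and 15.6 CPM, the Z-disc gene MYOT with 176 and 967 CPM against 0 UMIs, and the carbonic anhydrase gene CA3, with 371 and 829 against 0.727 and 0 CPM. Every one of the 60 was less abundant in the chosen than in the other nuclei of both subcutaneous libraries. The same count over all tested genes is not given here, so this count has no background to be read against. The muscle list took 2.93% and 12.2% of UMIs in the subcutaneous chosen nuclei, against 8.89% and 31.8% in the other nuclei beside them, and 0.606% and 0.300% in the intramuscular chosen nuclei. With the genes of the muscle list and mitochondrially encoded genes left out of totals and tests, 32 genes passed, all lower. Muscle genes outside the list stayed in, and SLN was among those that passed.

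No gene of lipid storage, synthesis, uptake or release passed the test. The genes that follow had the smallest p after ADAMTS4 among those higher in intramuscular nuclei. Genes on the lower side that did not pass are not listed here, and some of them had smaller p. PDK4 stood at 87.8 and 166 CPM in subcutaneous chosen nuclei, against 537 and 1845 CPM in intramuscular ones, a log2 fold change of 3.31 (SE 1.01, edgeR adjusted p = 0.273). It passed with DESeq2 (adjusted p = 0.0422) and with 1 intramuscular library left out, at 1.06e-05 without that of animal 1 and 0.0447 without that of animal 2. In those fits the subcutaneous pair alone gives the spread, and the lone intramuscular library is assumed to vary like it. Without either subcutaneous library the adjusted p was 1.00. Within animals PDK4 was 6.12 times (counting interval 4.01 to 9.82) as high in intramuscular nuclei in animal 1 and 11.1 times (4.96 to 30.9) in animal 2. The other genes with the smallest p on this side were MYOC, the secreted glycoprotein myocilin, at 3.28 (SE 1.004), the carboxypeptidase-like gene CPXM1 at 3.08 (SE 0.963) and the unnamed ENSBTAG00000034366 at 3.06 (SE 0.923), with edgeR adjusted p of 0.264 to 0.308. MYOC and CPXM1 had 0 UMIs in the subcutaneous chosen nuclei of animal 2, and in animal 1 both were denser in the other intramuscular nuclei, at 339 and 280 CPM, than in the chosen ones, at 99.6 and 103 CPM.

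TBX3 (ENSBTAG00000021706), a T-box transcription factor, stood at 148 and 166 CPM in subcutaneous chosen nuclei, against 605 and 1392 CPM in intramuscular ones, a log2 fold change of 2.70 (SE 0.909, edgeR adjusted p = 0.438). TBX3 alone of 7 tested HOX and patterning genes had a positive log2 fold change. CIDEA had 164 and 193 against 401 and 2048 CPM, a log2 fold change of 2.78 (SE 0.998). THRSP, a promoter of lipogenesis, had 335 and 193 against 1108 and 1188 CPM, 3.31 times (2.65 to 4.17) as high in animal 1 and 6.15 times (2.84 to 15.8) in animal 2. PCK1 had 439 and 138 against 1138 and 1329 CPM, 2.59 times (2.14 to 3.18) and 9.62 times (3.97 to 30.4) as high. The other nuclei held TBX3, CIDEA, THRSP and PCK1 in the same order. TBX3 had 47.1 and 13.6 against 301 and 1517 CPM there, and CIDEA 41.5 and 11.1 against 184 and 1710. THRSP had 82.9 and 4.28 against 603 and 578 CPM, and PCK1 84.0 and 5.29 against 339 and 843. These values of the other nuclei were not tested. For each of these 4 genes the depots did not overlap and both steers showed the same direction, and none passed edgeR's test in the sums of all 4 libraries, with adjusted p of 0.438 to 1.00. With 1 library left out, all 4 passed only without the intramuscular library of animal 1, at edgeR adjusted p of 0.000119 to 0.0403, where again the subcutaneous pair alone gives the spread. Without that of animal 2 none passed, at 0.108 to 0.631, and without either subcutaneous library all stood at 1.00.

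SCD, at 1887 and 249 CPM in subcutaneous against 6459 and 813 CPM in intramuscular chosen nuclei, had overlapping depots and a log2 fold change of 1.88 (SE 1.14). Within each steer it was higher in intramuscular nuclei by a similar factor, 3.42 (3.12 to 3.76) in animal 1 and 3.27 (1.60 to 7.55) in animal 2. The other nuclei of each steer also had more SCD in intramuscular fat, with 642 and 35.0 against 5004 and 145 CPM. FABP4 had 5642 and 2293 against 11423 and 2908 CPM, a log2 fold change of 0.95 (SE 0.957). LEP had 271 and 442 against 302 and 203 CPM, a log2 fold change of -0.40 (SE 0.811), and ADIPOQ 152 and 55.2 against 74.9 and 46.9 CPM, one of -0.74 (SE 0.754). The depots overlapped for all 4 genes, and none passed (edgeR adjusted p = 1.00 for each).

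**Figure D4:**
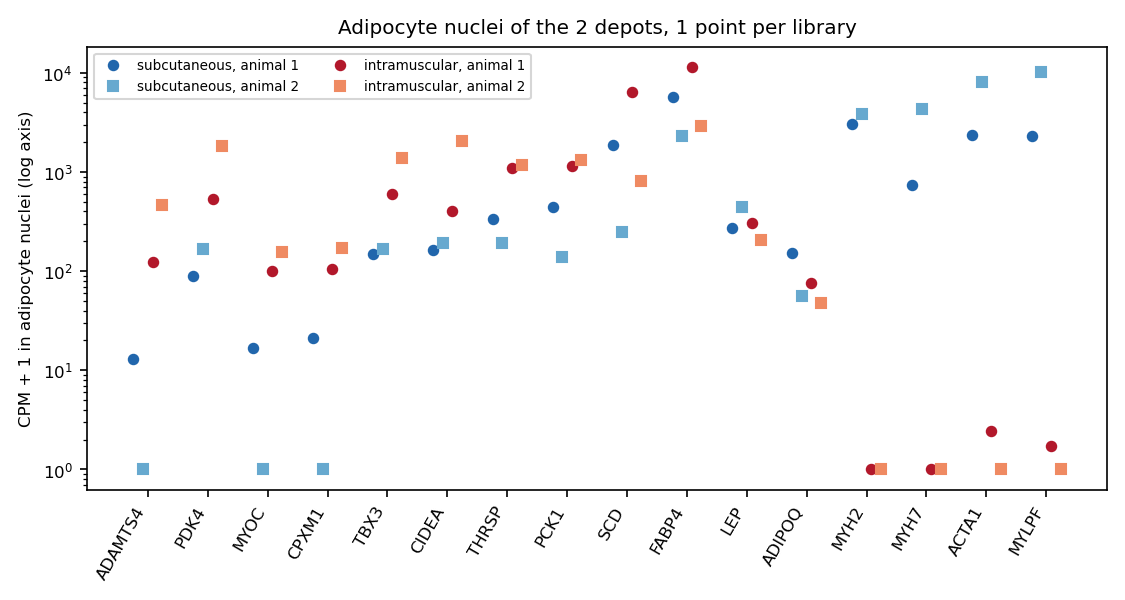
CPM + 1 (log axis) of 16 genes in the chosen adipocyte nuclei of the 4 libraries, 1 point per library, with circles for animal 1 and squares for animal 2, blue for subcutaneous and red for intramuscular. ADAMTS4, PDK4, TBX3, CIDEA, THRSP and PCK1 have both red points above both blue ones, LEP overlaps, and the 4 muscle genes on the right have both red points at the bottom.

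By list, the median log2 fold change between depots was 0.87 over 10 tested genes of triglyceride synthesis, of which 9 were positive, 0.65 over 9 of fatty acid uptake, 0.65 over 9 of fatty acid oxidation, 0.33 over 11 of lipolysis, 0.22 over 11 of fatty acid synthesis and 0.21 over 9 of the droplet coat, beside 0.06 over all tested genes. No member of these lists passed. Insulin signalling and glucose uptake had a median of -0.34 over 8 genes, and its share of UMIs was 0.327% and 0.320% in the subcutaneous against 0.177% and 0.385% in the intramuscular chosen nuclei. Adipogenic transcription factors had 0.07 over 15. HOX and patterning genes had -0.70 over 7, of which TBX3 alone was positive, and none passed. Immediate early and heat shock genes had 1.44 over 12, with shares of 0.593% and 0.588% against 1.73% and 0.275%, so that the 2 intramuscular libraries lay on both sides of the subcutaneous ones. Ribosomal protein genes had -0.77 over 16, all negative, with none past the threshold. Of the nuclear-encoded respiratory chain genes 1 of 14 fell, COX6A2, the muscle form of its subunit, with 83.8 and 331 CPM against 0 UMIs. UCP1, the uncoupling protein of brown fat, had no UMI in the chosen nuclei of any library.

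**Figure D5:**
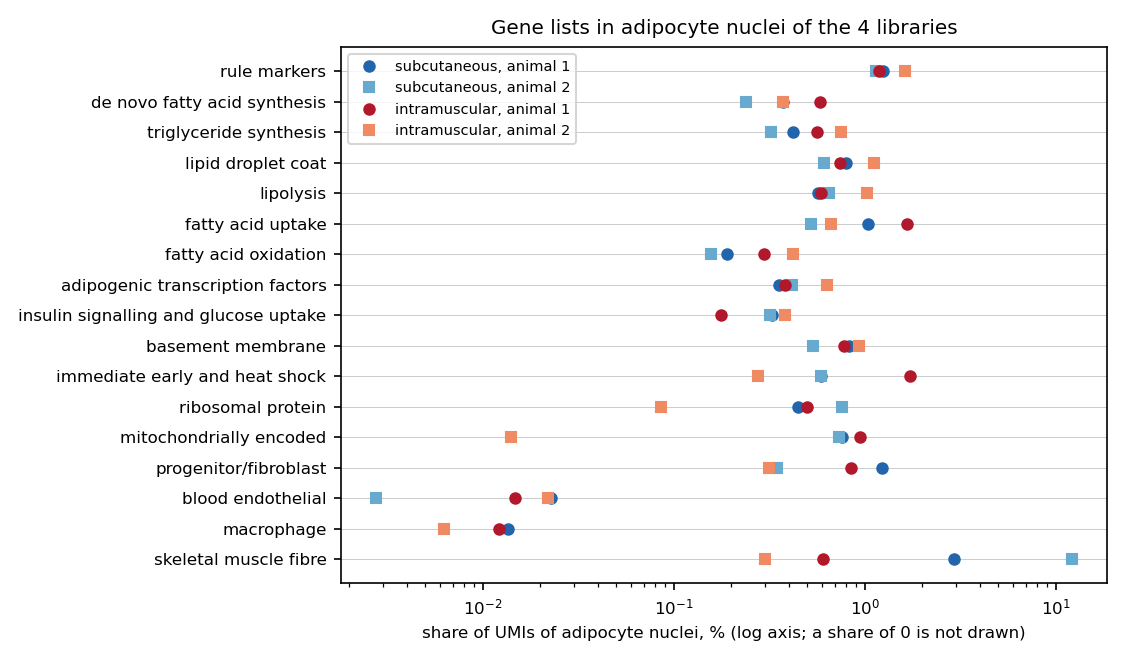
Share of the UMIs of the chosen adipocyte nuclei taken by 17 gene lists (log axis, %), 1 point per library, with circles for animal 1 and squares for animal 2, blue for subcutaneous and red for intramuscular. The muscle list separates the depots (2.93% and 12.2% against 0.606% and 0.300%), while mitochondrially encoded, ribosomal protein and immediate early genes set the intramuscular library of animal 2 apart.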

How the data were processed

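Single nuclei of subcutaneous and intramuscular fat of 2 steers were measured with 10x 3' RNA sequencing. The files deposited by the authors are 1 matrix per library of raw counts, in UMIs of a gene in a barcode. Counting was done with Cell Ranger 6.0.1 per the file headers, and the build was ARS-UCD1.2 per the submitters' processing notes. For the annotation release, the treatment of intronic reads and the use of strand nothing is given in the sources used here. The 21861 features were Ensembl genes, 4251 of them unnamed. No genome of that build was at hand, so coordinates and sequences are not given, and RefSeq names of ARS-UCD2.0 served only to list overlapping genes.

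Nuclei were chosen by the rule in the opening, with no filter on mitochondrial UMIs and no doublet caller. The members and gene lists were chosen with earlier results of these data known. UMIs were summed per library over chosen and other nuclei and scaled to CPM. Ratios have exact 95% counting intervals. Comparisons with other nuclei needed at least 20 UMIs in animal 1 and 5 in animal 2 over chosen and other nuclei together (4472 genes). The plan had named the chosen nuclei alone (3079 genes), which drops genes low in them. The 2-fold counts had 0.5 UMIs added per sum. The test between depots was that of edgeR 4.0.16 (filterByExpr, TMM, quasi-likelihood F test, Benjamini-Hochberg threshold 0.05) in R 4.3.3, tested on simulated data. The SE is the absolute log2 fold change over the root of the F statistic. A count of 0 was read as up to 3 counts. The animals pair the libraries per the labels, and deviations of same-animal libraries correlated with r = 0.07 over 3796 genes. Thinning drew 500 UMIs per nucleus and left out 3, 2, 0 and 3 chosen nuclei (subcutaneous animals 1 and 2, intramuscular animals 1 and 2).

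Named genes were the 14 rule genes and, against other nuclei, the 20 highest and the 8 lowest by ratio in animal 1. The 20 highest needed at least 100 UMIs in animal 1, 10 in animal 2 and a ratio above 1 in both. Up to 10 per direction between depots at 50 CPM or more (or the 5 smallest p) were added. Further ones were 6 per direction between animals, the 12 most variable, the 3 most abundant of each list, and SCD, LEP and ADIPOQ. One named gene is not reported here. Other named list members were chosen after their values were seen. DGAT2, HILPDA, G0S2, PNPLA3 and CEBPA were not analysed here. Alternatives were other marker numbers, gene minimums and count filters, no exclusion, a mitochondrial limit, thinning and the animal as block. Others were DESeq2 1.42.0, muscle list and mitochondrially encoded genes left out, and each library left out.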

Additional observations from a re-analysis of the deposited data

Results flagged for a closer look

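For 2 named genes with at least 10 UMIs in every library, the ratio of chosen to other nuclei lay on opposite sides of 1 in the depots, in every library. The difference was not tested. TPM1, a tropomyosin of muscle and other cells, had ratios of 0.385 and 0.303 in the subcutaneous and 1.61 (95% counting interval 1.52 to 1.71) and 1.17 (0.672 to 2.11) in the intramuscular libraries of animals 1 and 2. TNS2, an adhesion gene, had 1.93 and 8.34 against 0.871 (0.640 to 1.18) and 0.905 (0.586 to 1.41), and rested on 6 UMIs in the subcutaneous chosen nuclei of animal 2. The intervals of 3 of these 4 intramuscular ratios include 1.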

How the results depend on the processing

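Of 3796 genes tested between depots, 61 were called. After thinning 962 genes were tested and 25 called. Without muscle list and mitochondrially encoded genes 3739 were tested and 32 called. Fits without 1 library tested 2216 to 6625 genes. Leaving out 1 library gave 48 to 231 calls, with 231 without the intramuscular library of animal 1 and 140 without that of animal 2. With the animal as replicate block 62 passed, 60 of them shared with the 61, and with DESeq2 74. The 44 genes at least 2-fold higher than other nuclei in both animals became 123 without the exclusion, 18 with at least 50 and 10 UMIs and 110 against nuclei with at most 1 marker (the last chosen after seeing the data), and 369 to 505 with 1 library. With the UMI minimum set on the chosen nuclei alone, 44 were higher and 10 lower, against 78 lower; the 3079 genes then compared leave out those low in the chosen nuclei.

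Over 23 named genes between depots, 330 of 349 recomputed values kept direction and side of the threshold. ADAMTS4 lost its call in 7, 9 gained one, and 3 changed sign. With 1 library left out the log2 fold change of SCD ran from -0.60 (without the intramuscular library of animal 1) to 3.97, that of FABP4 from -0.62 (the same library) to 1.74, and that of LEP from -0.93 to 0.048 (without the intramuscular library of animal 2). In other named genes the block changed no call. The difference in the share of nuclei kept its direction in every setting run. The 40 and 27 nuclei of animal 2 limit the precision of every value from it, and its other intramuscular nuclei number 23. The cause of these changes was not tested.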
